A study of Mus musculus with 12 samples.

Results

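The genes of fatty acid uptake and mitochondrial fatty acid oxidation were followed by RNA sequencing of mouse left ventricle. They are 44 genes, taken as the rows of the deposited count table whose gene symbol is one of a list named by step: uptake, activation, the carnitine shuttle with its malonyl-CoA control, beta oxidation with electron transfer, the genes commonly regulated with it (uncoupling proteins and Pdk4), and thioesterases. All 44 were among the 55401 genes of the table, and all 44 passed the filter on low counts with 17699 genes tested. The list was chosen by function and by name, with no measured value in the rule.

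The study compared mice labelled WT with mice carrying Prkca T497A, a point mutant of protein kinase C alpha in which a threonine is replaced by alanine, made by base editing according to the series title. Mice had sham surgery or transverse aortic constriction (TAC), a narrowing of the aortic arch that loads the left ventricle with pressure, at 10 weeks of age, with a 27-gauge needle to set the constriction, and tissue was taken 1 week later at 11 weeks. The 4 groups were WT sham, T497A sham, WT TAC and T497A TAC, with 3 libraries each. Strain, sex, the number of edited alleles and whether the libraries of a group came from separate animals are not given in the labels used here, so p-values measure the spread between these libraries, which may be in part technical. The cell type label reads cardiomyocyte and the tissue label left ventricle. Summed markers of endothelial cells stood at 1305 to 1746 CPM (counts scaled by library total and TMM factor) and those of fibroblasts at 2916 CPM or more in every library, so the values are those of tissue.

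The working heart draws most of its ATP from long-chain fatty acids. These are freed from lipoproteins in the capillary, cross the endothelium and the muscle cell membrane, are bound to coenzyme A, pass the inner mitochondrial membrane as carnitine esters, and are shortened in the matrix in repeated rounds of dehydrogenation, hydration, dehydrogenation and thiolysis, with electrons handed to the respiratory chain through the electron transfer flavoprotein. Many of the genes are known targets of the nuclear receptors PPAR alpha and ERR alpha with the coactivator PGC-1 alpha, and lower levels of them are a known feature of pressure-loaded hearts.

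Because PPAR and ERR receptors bind the element AGGTCA, the 250 bases before each RefSeq start site (build GRCm38.p6) were searched on both strands for it. Promoters were matched by symbol for 37 of the 44 genes, 42 promoters in all. AGGTCA was in 7 of the 42 promoters (16.7%), against 14.0% of all 32851 promoters of that length. Its ERR form, TCAAGGTCA, which contains AGGTCA and overlaps each match of it, was in 1 member promoter, that of Acsl6, against 0.387% of all. The PPAR form, 2 copies of AGGTCA with 1 base between (AGGTCANAGGTCA), was in no member promoter and in 0.0335% of all, and with up to 2 mismatches over its 12 fixed bases it was in 4 member promoters (9.52%, Cd36, Ucp3, Echs1 and Etfa) against 3.24% of all. These matches are descriptions of letters in a window and say nothing about binding. Windows of 3 of them that touch no annotated exon are shown, 5′ to 3′ on the strand of the gene, with the matched letters in capitals and 30 bases on either side of the outermost matches. Ucp3 is shown because its fall was among the largest of the list, Acsl6 for the ERR form, and Etfa for an imperfect PPAR form in a gene of the electron transfer step.
Ucp3 (chr7:100472812-100472982, plus strand): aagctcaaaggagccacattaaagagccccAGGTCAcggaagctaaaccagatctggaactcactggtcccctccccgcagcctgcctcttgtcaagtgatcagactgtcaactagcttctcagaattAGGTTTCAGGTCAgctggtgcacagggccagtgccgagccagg
Acsl6 (chr11:54303605-54303695, plus strand): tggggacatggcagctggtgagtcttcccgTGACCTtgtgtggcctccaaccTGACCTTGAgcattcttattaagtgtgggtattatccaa
Etfa (chr9:55512278-55512350, minus strand): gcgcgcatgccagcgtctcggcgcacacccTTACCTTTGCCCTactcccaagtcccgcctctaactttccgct
In Acsl6 and Etfa the capitals are the reverse complement of the element, so the match lies on the other strand, and in Acsl6 the longer run of capitals is the ERR form. The levels of these 3 genes in each library are given with their steps.

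Before the results, some facts of the libraries as a whole bear on them. Each library held between 58932759 and 72594085 counts, and libraries of a group correlated at 0.980 to 0.990 over genes. The Prkca count cannot show a point mutation itself. It was 31.1 to 35.7 CPM in T497A sham and 42.25 CPM or more in the other 9 libraries. Those of T497A TAC stood at 43.65 to 50.3 CPM. The cause of this difference was not tested. Sex-linked genes set T497A sham apart, and autosomal genes met a conflict with the genotype labels of the TAC groups. Xist, transcribed from the inactive X chromosome of females, stood at 160 to 215 CPM in the T497A sham libraries and at 0.315 to 0.751 CPM in the other 9, and the Y-linked Ddx3y at 0.0999 to 0.396 CPM in the T497A sham libraries and 73.7 CPM or more in the other 9. Of 104 autosomal genes at least 4-fold apart between the sham groups, 95 differed in the opposite direction between the same 2 genotype labels after TAC, and 33 of the 104 lie on chromosome 11, which holds 8.25% of autosomal genes tested and also Prkca. On a scale where WT sham is 0 and T497A sham is 1, these 104 genes had a median position of 0.685 in WT TAC and 0.0321 in T497A TAC. None of the 44 fatty acid genes was among the 104. Whether the genotype labels of the TAC groups are right was not tested. If they were exchanged, each difference between genotypes after TAC would have the opposite sign, and the effects of TAC within a genotype would be the comparisons across the labels. The group names below are those of the labels, and every comparison is given with this reservation. Genotype and sex cannot be told apart between the sham groups, nor surgery and sex between T497A sham and T497A TAC. Every other comparison that uses T497A sham carries the same limit. Comparisons across the labels, T497A TAC against WT sham and WT TAC against T497A sham, are given after the others.

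The fatty acid genes fell together in the WT TAC libraries. In WT sham their summed level was 26600 to 27930 CPM, in T497A sham 27040 to 27340 CPM, in WT TAC 11280 to 14550 CPM and in T497A TAC 21860 to 23560 CPM. The WT TAC libraries thus lay below all 9 others, the T497A TAC libraries lay between them and the sham libraries, and the sham groups overlapped. At a Benjamini-Hochberg adjusted p under 0.05 (edgeR's quasi-likelihood test on counts, called a rise or a fall from here on), 38 of 44 fell in WT TAC against WT sham and 1 rose, where 24% of all genes tested fell and 25.9% rose. The median log2 fold change of the 44 was -1.20 against 0.03 for all genes. Of the 44, 26 fell by at least 2-fold, a cut at which all genes were not counted. The 3 WT TAC libraries lay below all 3 WT sham libraries in 38 genes (29% of all genes) and above them in 5 (31.2%). In bulk tissue fewer cells of a type and less RNA per cell cannot be told apart, and muscle cell markers moved as well: 10 of 12 sarcomere genes fell in WT TAC (median -0.74). Counts were also scaled to the geometric mean of those 12 genes, which moves the median of all genes to 0.71. On that scale, called relative to sarcomere genes from here on, 31 of the 44 fell and 8 rose. Of all 17699 genes, 816 fell and 11853 rose on it. With library totals alone, which moves the median of all genes to 0.36, 35 of the 44 fell and 6 rose. A scaling that moves the median of all genes also moves the number called, so counts on these scales cannot be read alone, here or below.

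**Figure D1:**
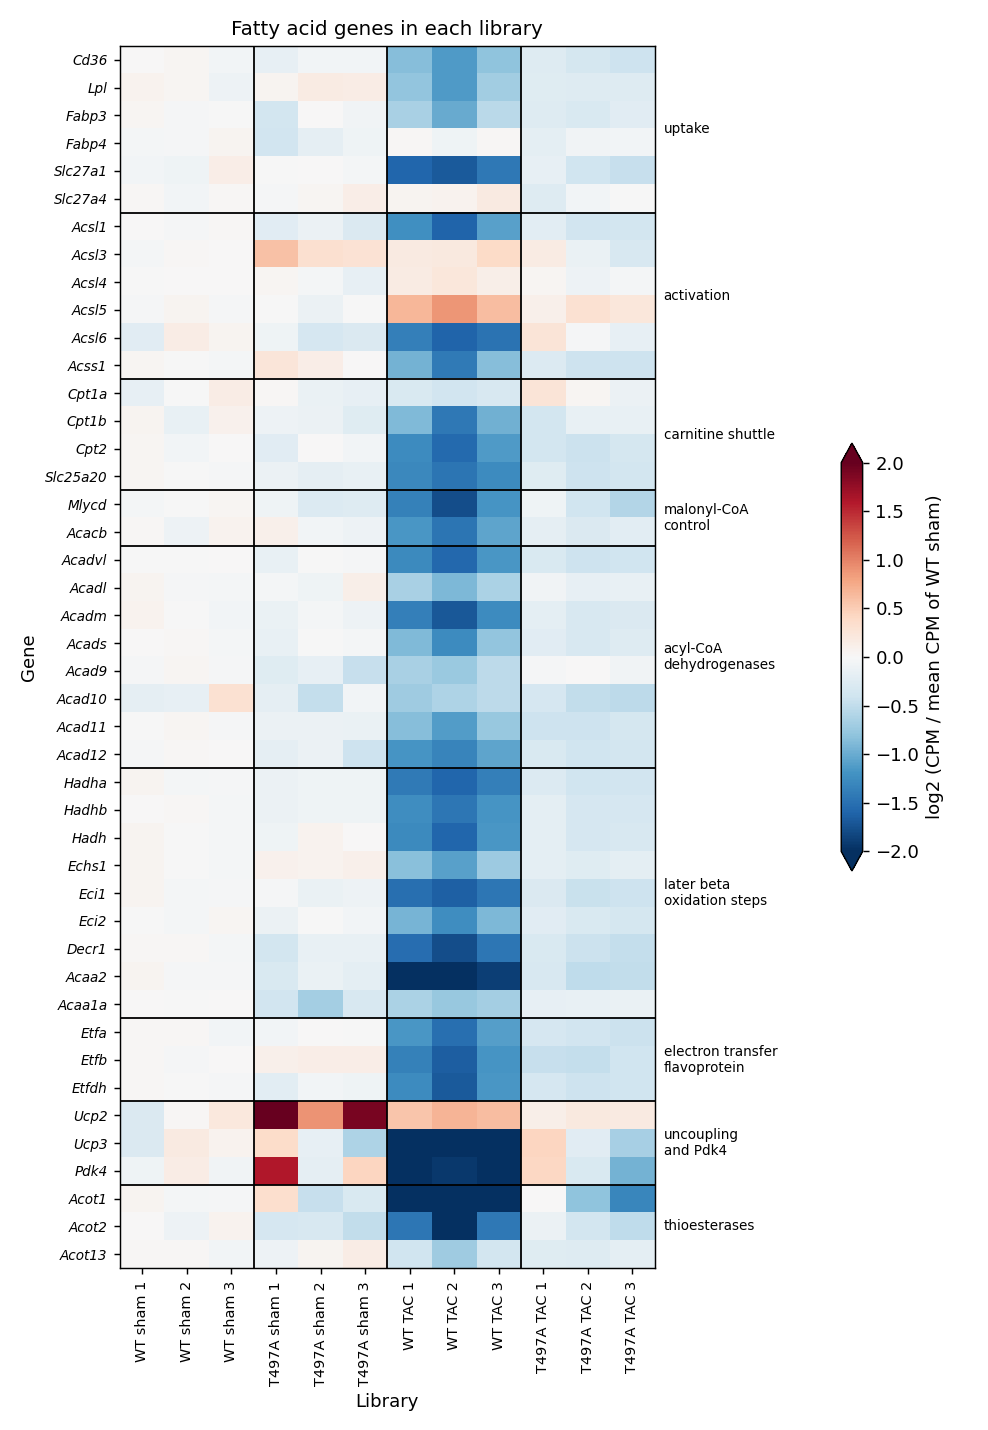
Level of each of the 44 genes (rows, by step) in each of the 12 libraries (columns, by group) as log2 of CPM over the mean CPM of WT sham, with colours clipped at -2 and 2. The 3 WT TAC columns are blue for 38 genes, while Fabp4, Slc27a4, Acsl3, Acsl4, Acsl5 and Ucp2 are not, and Ucp2, Pdk4, Ucp3 and Acot1 vary most within a group.

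Among the uptake genes, 4 of 6 fell in WT TAC and the other two, Fabp4 and Slc27a4, were not called. Cd36 (chr5:17781690-17888801), the membrane carrier of long-chain fatty acids, stood at 1972, 2017 and 1898 CPM in WT sham, 1760, 1885 and 1886 in T497A sham, 1083, 899 and 1127 in WT TAC and 1647, 1530 and 1466 in T497A TAC. All 3 WT TAC libraries were lower than the 9 others, and the T497A TAC libraries lay below every sham library, a fall of log2 fold change -0.92 ± 0.08 (SE; adjusted p = 7.6e-07) in WT. Lpl (chr8:68880491-68907448), the lipase that frees fatty acids from circulating triglyceride, stood at 6737, 6608 and 5996 CPM in WT sham, 6715, 7251 and 7164 in T497A sham, 3721, 2946 and 3975 in WT TAC and 5479, 5383 and 5390 in T497A TAC. It was again lowest in WT TAC (-0.86 ± 0.10, adjusted p = 6.5e-06) and intermediate, with no overlap with either sham group, in T497A TAC. Fabp3, the fatty acid-binding protein of heart muscle, stood at 2198, 2100 and 2115 CPM in WT sham, 1664, 2149 and 2040 in T497A sham, 1367, 1068 and 1465 in WT TAC and 1784, 1735 and 1823 in T497A TAC. The WT TAC libraries did not overlap the others (-0.72 ± 0.11, adjusted p = 8e-05). Reads of Fabp3 are uncertain, as 29.2% of its 50-base sequences recur in the pseudogene Fabp3-ps1, which moved in the same direction from 13.7 ± 0.598 CPM (SD, n = 3) in WT sham to 8.13 ± 1.42 CPM in WT TAC.

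The fatty acid transport proteins parted. Slc27a1 (chr8:71568882-71587302), the form known in muscle and fat, stood at 181, 177 and 207 CPM in WT sham, 187, 189 and 184 in T497A sham, 62.9, 58.9 and 70.2 in WT TAC and 169, 144 and 137 in T497A TAC. Its WT TAC libraries were below all others, with a fall of -1.56 ± 0.09 (adjusted p = 1.5e-08) in WT and of -0.32 ± 0.09 (adjusted p = 0.015) in T497A, the second lost without T497A TAC 2 or 3. Slc27a4, the more widely expressed form, stood at 30.1, 28.4 and 30.1 CPM in WT sham, 29.1, 30.3 and 32.4 in T497A sham, 30.8, 30.9 and 33.3 in WT TAC and 24.7, 28.5 and 29.5 in T497A TAC. Its WT TAC libraries lay just above WT sham and T497A TAC overlapped T497A sham. The gene did not pass the test after TAC in either genotype (0.10 ± 0.07 in WT and -0.15 ± 0.07 in T497A, log2 fold change ± SE). Per kilobase of exon, Slc27a4 made up 17.2% of the CPM of the pair in WT sham, 17.8% in T497A sham, 39.6% ± 1.23 (SD, n = 3) in WT TAC and 19.7% ± 3.13 in T497A TAC. Fabp4, a form known from adipocytes and capillary endothelium, stood at 579, 587 and 617 CPM in WT sham, 454, 525 and 558 in T497A sham, 606, 561 and 602 in WT TAC and 518, 565 and 574 in T497A TAC. Its TAC and sham libraries overlapped under both labels (-0.01 ± 0.08 in WT, 0.11 ± 0.08 in T497A). Relative to sarcomere genes Fabp4 rose in WT TAC (log2 fold change 0.67), as it did with library totals alone (0.32). Adipocyte markers summed to 22.7 CPM or less in every library and endothelial markers to 1394 to 1441 CPM in WT sham and 1477 to 1746 CPM in WT TAC, and their part in the level of Fabp4 was not tested.

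Activation, the joining of a fatty acid to coenzyme A, held the genes that went both ways. Acsl1 (chr8:46471037-46536051), the main long-chain synthetase of heart, stood at 1286, 1259 and 1308 CPM in WT sham, 1096, 1182 and 1050 in T497A sham, 548, 421 and 602 in WT TAC and 1113, 989 and 995 in T497A TAC. The WT TAC libraries were lower than all others and the T497A TAC libraries overlapped those of T497A sham: -1.29 ± 0.11 (adjusted p = 2.8e-07) in WT, -0.10 ± 0.10 (adjusted p = 0.52) in T497A. Acsl6, a form best known from brain and testis, stood at 15.1, 19.5 and 18.2 CPM in WT sham, 16.6, 13.9 and 14.4 in T497A sham, 6.84, 5.84 and 6.34 in WT TAC and 21.1, 17.3 and 15.7 in T497A TAC. It was lowest in WT TAC (-1.48 ± 0.13, adjusted p = 4.4e-07) and did not pass the test after TAC in T497A (0.27 ± 0.12, adjusted p = 0.13), where its TAC and sham libraries overlapped. Acss1, the mitochondrial synthetase that activates acetate, stood at 507, 492 and 482 CPM in WT sham, 582, 544 and 494 in T497A sham, 256, 185 and 274 in WT TAC and 407, 372 and 370 in T497A TAC. Here both TAC groups lay below both sham groups, WT TAC the lower of them, with falls of -1.05 ± 0.12 (adjusted p = 7.1e-06) in WT and -0.50 ± 0.12 (adjusted p = 0.0073) in T497A.

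Acsl5, a synthetase of the outer mitochondrial membrane and endoplasmic reticulum, was the 1 gene of the 44 that rose in WT TAC. It stood at 19.8, 21.1 and 19.8 CPM in WT sham, 20.1, 18.7 and 20.2 in T497A sham, 32.01, 37.2 and 31.00 in WT TAC and 21.8, 24.9 and 23.7 in T497A TAC. All 3 WT TAC libraries were above the 9 others, with a rise of 0.72 ± 0.08 (adjusted p = 4.2e-06) in WT, and the T497A TAC libraries were above both sham groups by less, 0.25 ± 0.08 (adjusted p = 0.032), a call lost without any 1 of 5 libraries (each T497A sham library, T497A TAC 2 and T497A TAC 3). Acsl4, which prefers arachidonic acid, stood at 18.4, 18.6 and 18.6 CPM in WT sham, 19.1, 18.1 and 16.5 in T497A sham, 20.8, 21.7 and 20.02 in WT TAC and 18.9, 17.3 and 17.9 in T497A TAC. It was highest in WT TAC, yet the difference from WT sham did not pass the test (0.17 ± 0.07, adjusted p = 0.062). Acsl3, a form of the endoplasmic reticulum and lipid droplets, stood at 7.03, 7.32 and 7.22 CPM in WT sham, 10.8, 9.00 and 8.82 in T497A sham, 8.15, 8.27 and 9.34 in WT TAC and 8.05, 6.55 and 5.75 in T497A TAC. T497A sham had its highest mean and T497A TAC overlapped WT sham. The fall after TAC in T497A (-0.49 ± 0.13, adjusted p = 0.013) stood beside an uncalled difference in WT (0.26 ± 0.13), and it was lost without T497A sham 1, T497A TAC 2 or T497A TAC 3. Per kilobase of exon, Acsl1 made up 91.8% ± 0.384 (SD, n = 3) of the CPM of these 5 synthetases in WT sham and 78.6% ± 4.08 in WT TAC, with 74.0% in WT TAC 2 and 80.1% and 81.7% in the other two libraries. In T497A sham and T497A TAC it ranged from 89.1% to 91.4%.

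The carnitine shuttle fell in all 4 of its genes in WT TAC. Slc25a20, the carnitine-acylcarnitine carrier of the inner membrane, stood at 259, 251 and 249 CPM in WT sham, 232, 223 and 227 in T497A sham, 104, 92.02 and 106 in WT TAC and 214, 190 and 196 in T497A TAC. Cpt2, which returns the acyl group to coenzyme A in the matrix, stood at 271, 256 and 266 CPM in WT sham, 226, 266 and 256 in T497A sham, 110, 89.7 and 121 in WT TAC and 206, 197 and 208 in T497A TAC. In both, the WT TAC libraries were below all others and T497A TAC below both sham groups. The falls in WT were -1.33 ± 0.06 (adjusted p = 4.5e-09) for Slc25a20 and -1.31 ± 0.09 (adjusted p = 8.2e-08) for Cpt2. Cpt1b (chr15:89416405-89425863), the muscle form of the outer-membrane acyltransferase that commits fatty acids to oxidation, stood at 23.3, 20.2 and 23.7 CPM in WT sham, 20.97, 20.7 and 18.96 in T497A sham, 12.1, 8.35 and 11.6 in WT TAC and 17.3, 20.2 and 20.1 in T497A TAC. It was lowest in WT TAC (-1.07 ± 0.12, adjusted p = 5.7e-06), and T497A TAC overlapped T497A sham and lay just below WT sham. The true level of Cpt1b cannot be read from these counts: 2744 of its 3372 exon bases (81.4%) also belong to Gm44502, a gene model on the same strand that is listed at 0 in all 12 libraries, so reads of the shared bases may be missing from both.

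Cpt1a, the form best known from liver and also expressed in heart, stood at 71.9, 79.7 and 89.3 CPM in WT sham, 81.5, 73.4 and 71.7 in T497A sham, 65.2, 61.6 and 64.5 in WT TAC and 96.5, 82.5 and 73.7 in T497A TAC. Its WT TAC libraries were below all others by a small margin (-0.33 ± 0.10, adjusted p = 0.0096), and the call was lost without WT sham 3 (log2 fold change -0.25, adjusted p = 0.056) and turned into a rise of 0.35 relative to sarcomere genes. In T497A TAC Cpt1a was not called (0.16 ± 0.10). Malonyl-CoA, which inhibits the acyltransferase, is made at the mitochondrion by the product of Acacb and removed by that of Mlycd, and both genes fell in WT TAC. Acacb stood at 598, 546 and 612 CPM in WT sham, 628, 565 and 544 in T497A sham, 260, 212 and 282 in WT TAC and 515, 478 and 505 in T497A TAC. Mlycd stood at 138, 141 and 145 CPM in WT sham, 133, 117 and 119 in T497A sham, 55.6, 41.5 and 62.4 in WT TAC and 133, 107 and 93.9 in T497A TAC. The WT TAC libraries of both were the lowest, and the falls in WT were -1.22 ± 0.09 (adjusted p = 1.8e-07) for Acacb and -1.41 ± 0.15 (adjusted p = 1.2e-05) for Mlycd. The messengers of the enzyme that makes malonyl-CoA and of the one that removes it were thus low in the same 3 libraries.

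All 8 acyl-CoA dehydrogenase genes, whose main members take the initial step of each beta oxidation round at different chain lengths, fell in WT TAC by 0.61 to 1.43 on the log2 scale. Acadm (chr3:153922357-153944632), for medium chains, stood at 1539, 1453 and 1405 CPM in WT sham, 1341, 1433 and 1368 in T497A sham, 570, 453 and 612 in WT TAC and 1282, 1178 and 1198 in T497A TAC. It fell by the most of the 8 in WT (-1.43 ± 0.09, adjusted p = 5.6e-08), with no overlap. Acadvl, for very long chains, stood at 689, 691 and 699 CPM in WT sham, 625, 691 and 682 in T497A sham, 286, 233 and 308 in WT TAC and 561, 521 and 524 in T497A TAC. It fell in WT (-1.33 ± 0.09, adjusted p = 5.1e-08), and 42.9% of its exon bases overlap Dvl2 on the opposite strand, so its reads are uncertain without the strand setting of the counting. Acadl, for long chains, stood at 1305, 1238 and 1227 CPM in WT sham, 1220, 1180 and 1367 in T497A sham, 798, 672 and 814 in WT TAC and 1203, 1125 and 1138 in T497A TAC. Acads, for short chains, stood at 263, 266 and 254 CPM in WT sham, 236, 261 and 254 in T497A sham, 141, 109 and 152 in WT TAC and 223, 210 and 217 in T497A TAC. Both were lowest in WT TAC, by -0.72 ± 0.08 (adjusted p = 4.8e-06) for Acadl and -0.96 ± 0.09 (adjusted p = 1.3e-06) for Acads.

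The remaining dehydrogenase genes encode relatives of less settled role. Acad9, also an assembly factor of respiratory complex I, stood at 43.6, 45.5 and 43.6 CPM in WT sham, 37.3, 39.5 and 32.1 in T497A sham, 28.4, 26.3 and 30.8 in WT TAC and 43.6, 44.3 and 42.2 in T497A TAC. Its WT TAC libraries were the lowest (-0.64 ± 0.08, adjusted p = 1e-05), and T497A TAC lay above T497A sham (0.26 ± 0.08, adjusted p = 0.026), a rise lost without T497A sham 3, T497A TAC 1 or T497A TAC 2. Acad11 stood at 159, 165 and 158 CPM in WT sham, 149, 149 and 147 in T497A sham, 89.4, 74.01 and 95.3 in WT TAC and 121, 121 and 126 in T497A TAC. Acad12 stood at 117, 122 and 120 CPM in WT sham, 105, 110 and 89.8 in T497A sham, 52.9, 47.96 and 57.7 in WT TAC and 97.4, 91.3 and 93.1 in T497A TAC. Both were lowest in WT TAC (-0.90 ± 0.07, adjusted p = 3.1e-07 and -1.18 ± 0.08, adjusted p = 5.9e-08), and Acad12 shares 15.7% of its 50-base sequences with its neighbour Acad10. Acad10 itself was at 2.61 to 5.24 CPM, and its fall in WT (-0.61 ± 0.17, adjusted p = 0.0074) was lost without WT sham 3 (-0.44, adjusted p = 0.054). Relative to sarcomere genes 5 of the 8 dehydrogenase genes fell in WT TAC and the other 3 were not called.

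**Figure D2:**
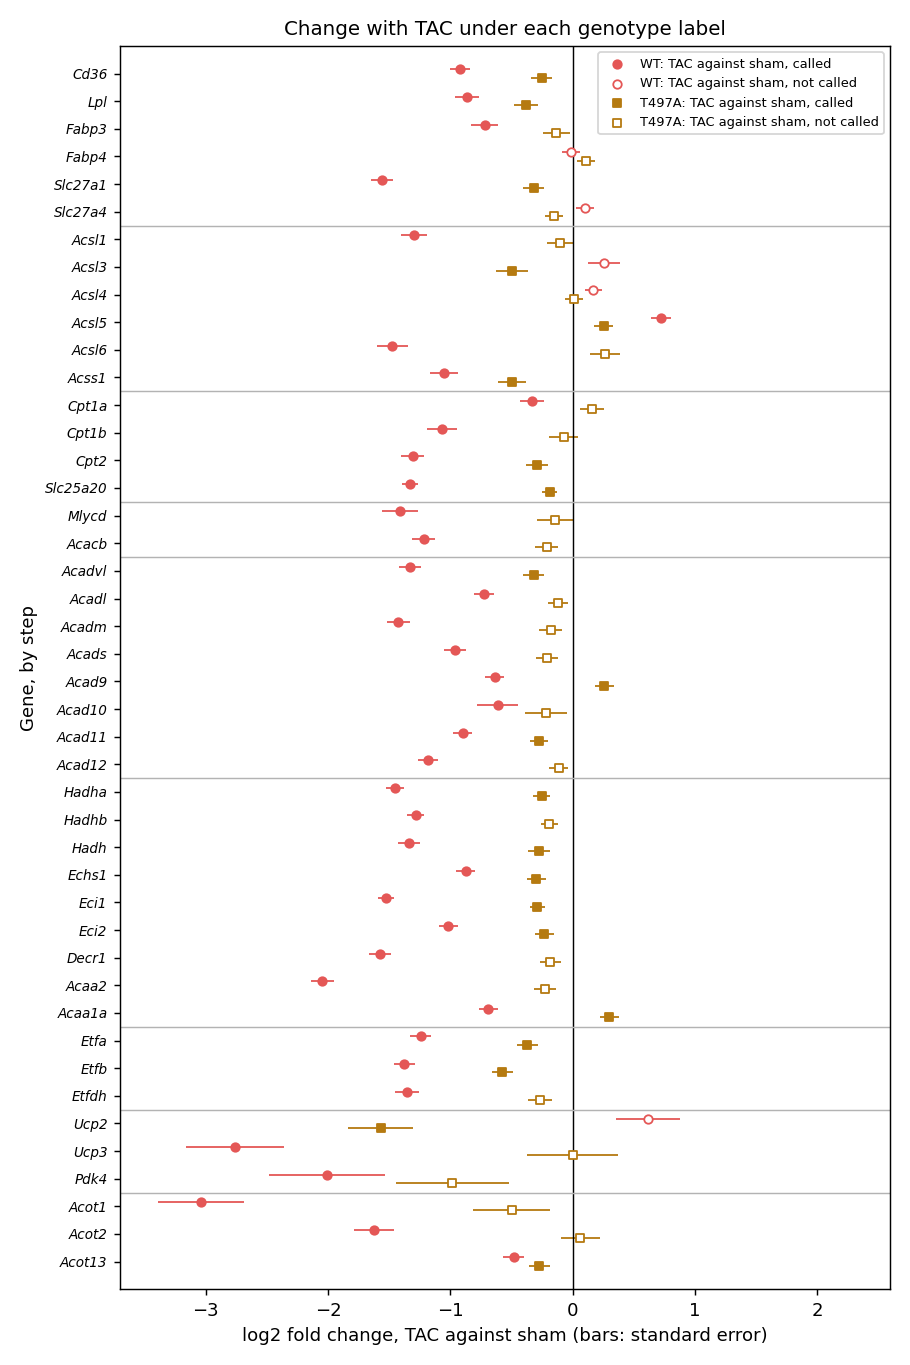
Log2 fold change of TAC against sham for each of the 44 genes, by step, with its standard error, for the WT label (circles) and the T497A label (squares), filled where the adjusted p is under 0.05. The filled circles lie left of 0 for 38 genes and right of 0 for Acsl5, and most squares lie between -0.5 and 0.3.

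The later steps of beta oxidation held the steepest falls of the spiral itself. All 9 genes fell in WT TAC, and 8 of 9 did relative to sarcomere genes, where Acaa1a was not called. Acaa2, the thiolase that ends each round in mitochondria, stood at 1074, 1019 and 1020 CPM in WT sham, 838, 945 and 905 in T497A sham, 260, 212 and 281 in WT TAC and 830, 733 and 739 in T497A TAC. The WT TAC libraries were far below the others, a fall of -2.05 ± 0.10 (adjusted p = 4.3e-09), and the T497A TAC libraries lay between them and the sham libraries. Hadha (chr5:30118304-30155162) and Hadhb encode the subunits of the trifunctional protein, which carries out the last 3 reactions on long chains. Hadha stood at 2055, 1917 and 1946 CPM in WT sham, 1810, 1852 and 1867 in T497A sham, 739, 657 and 765 in WT TAC and 1641, 1489 and 1511 in T497A TAC. Hadhb stood at 854, 869 and 832 CPM in WT sham, 789, 801 and 802 in T497A sham, 360, 313 and 376 in WT TAC and 748, 675 and 676 in T497A TAC. The subunits moved alike in WT TAC, by -1.45 ± 0.07 (adjusted p = 4.9e-09) for Hadha and -1.28 ± 0.07 (adjusted p = 1.5e-08) for Hadhb.

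Eci1 (chr17:24426641-24439348), an isomerase for unsaturated chains, had the smallest p of the 44 in WT TAC. It stood at 313, 293 and 293 CPM in WT sham, 294, 273 and 278 in T497A sham, 106, 96.8 and 110 in WT TAC and 245, 221 and 226 in T497A TAC, with a fall of -1.52 ± 0.07 (adjusted p = 1.8e-09) and no overlap between any TAC and sham library. Eci2, a related isomerase of mitochondria and peroxisomes, stood at 130, 127 and 135 CPM in WT sham, 120, 131 and 125 in T497A sham, 68.5, 55.1 and 70.2 in WT TAC and 112, 106 and 103 in T497A TAC. Decr1, the dienoyl-CoA reductase for polyunsaturated chains, stood at 518, 518 and 498 CPM in WT sham, 396, 461 and 463 in T497A sham, 177, 149 and 188 in WT TAC and 416, 380 and 366 in T497A TAC. The falls in WT were -1.02 ± 0.08 (adjusted p = 1.9e-07) for Eci2 and -1.58 ± 0.09 (adjusted p = 1.5e-08) for Decr1, and the WT TAC libraries of both lay below the 9 others. Hadh, the dehydrogenase for short hydroxyacyl chains, stood at 764, 731 and 716 CPM in WT sham, 692, 775 and 743 in T497A sham, 303, 245 and 328 in WT TAC and 646, 585 and 593 in T497A TAC. Echs1, the short-chain hydratase, stood at 434, 415 and 407 CPM in WT sham, 443, 442 and 448 in T497A sham, 235, 197 and 254 in WT TAC and 365, 354 and 367 in T497A TAC. Both were lowest in WT TAC, with falls of -1.34 ± 0.09 (adjusted p = 7.4e-08) for Hadh and -0.87 ± 0.08 (adjusted p = 5e-07) for Echs1.

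Acaa1a, the thiolase of peroxisomes, was the only gene of its step called between the sham groups. In 5 of the 9 genes of the step, the T497A sham libraries lay below all WT sham libraries (13.5% of all genes). Acaa1a was among these 5, and in 1 gene the T497A sham libraries lay above (12.9% of all genes). Acaa1a stood at 68.7, 67.7 and 68.4 CPM in WT sham, 52.3, 42.7 and 54.7 in T497A sham, 44.2, 40.4 and 42.4 in WT TAC and 60.7, 61.5 and 62.2 in T497A TAC. T497A sham overlapped neither WT sham nor T497A TAC. The gene fell in WT after TAC (-0.69 ± 0.08, adjusted p = 4.5e-06) and rose in T497A after TAC (0.30 ± 0.08, adjusted p = 0.011). Its near copy Acaa1b, which shares 12.4% of its 50-base sequences, was at 0.735, 1.51 and 1.27 CPM in T497A sham and 0.601 to 0.857 CPM in WT TAC against 0.0308 to 0.135 CPM in the other 6 libraries. How the counting split reads between the copies is not given in the sources used here.

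Electrons from the dehydrogenases pass to the flavoprotein made of the Etfa and Etfb products and from it to the oxidoreductase encoded by Etfdh, and all 3 genes fell in WT TAC, also relative to sarcomere genes. Etfa (chr9:55454508-55512243) stood at 734, 736 and 699 CPM in WT sham, 696, 730 and 722 in T497A sham, 324, 255 and 338 in WT TAC and 571, 553 and 538 in T497A TAC. Etfb (chr7:43444083-43457800) stood at 78.6, 76.4 and 78.3 CPM in WT sham, 83.5, 85.7 and 85.1 in T497A sham, 30.6, 24.9 and 34.3 in WT TAC and 56.4, 55.7 and 58.8 in T497A TAC. Etfdh stood at 877, 858 and 849 CPM in WT sham, 747, 829 and 808 in T497A sham, 359, 269 and 382 in WT TAC and 682, 645 and 654 in T497A TAC. In each gene the order was the same, sham groups above T497A TAC above WT TAC, with no overlap between TAC and sham. The falls in WT were -1.24 ± 0.09 (adjusted p = 7.9e-08) for Etfa, -1.38 ± 0.09 (adjusted p = 3.8e-08) for Etfb and -1.35 ± 0.10 (adjusted p = 1.3e-07) for Etfdh. Etfb also had the largest called fall in T497A TAC after that of Ucp2, -0.57 ± 0.09 (adjusted p = 0.00027), and kept it without each library in turn (adjusted p up to 0.0026). Of its exon bases, 53% are shared with another gene model on the same strand.

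The uncoupling proteins and Pdk4 varied widely between libraries of a group. Ucp3 (chr7:100472990-100486432), the uncoupling protein of muscle mitochondria, stood at 74.9, 104 and 95.7 CPM in WT sham, 119, 81.6 and 59.7 in T497A sham, 15.5, 8.25 and 16.8 in WT TAC and 123, 78.6 and 57.9 in T497A TAC. The WT TAC libraries were at most 16.8 CPM and all others at least 57.9 CPM, a fall of -2.76 ± 0.40 (adjusted p = 0.00042) in WT, while T497A TAC spanned the sham range (0.00 ± 0.37). Pdk4 (chr6:5483351-5496309), the kinase that switches off pyruvate dehydrogenase and so spares glucose, stood at 567, 666 and 577 CPM in WT sham, 1834, 534 and 811 in T497A sham, 147, 158 and 145 in WT TAC and 807, 487 and 314 in T497A TAC. Its WT TAC libraries were below all others (-2.01 ± 0.48, adjusted p = 0.0072), and T497A sham 1 was the highest of the 12. In T497A the change was not called (-0.98 ± 0.46, adjusted p = 0.17).

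Ucp2, the more widely expressed uncoupling protein, followed another pattern. It stood at 50.4, 62.5 and 71.3 CPM in WT sham, 265, 115 and 230 in T497A sham, 90.1, 98.4 and 94.5 in WT TAC and 66.4, 70.1 and 69.3 in T497A TAC. T497A sham was above all other groups, so Ucp2 fell in T497A after TAC (-1.57 ± 0.27, adjusted p = 0.0029), while in WT TAC all 3 libraries were above WT sham without passing the test (0.62 ± 0.26, adjusted p = 0.079). Macrophages also express Ucp2, and summed macrophage markers were 296 to 355 CPM in WT sham, 336 to 396 CPM in T497A sham, 613 to 969 CPM in WT TAC and 416 to 446 CPM in T497A TAC; their part in the level of Ucp2 was not tested.

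All 3 thioesterases of the list, which release fatty acids from coenzyme A, fell in WT TAC. Acot1 (chr12:84009490-84018371), the cytosolic form, stood at 17.2, 16.1 and 16.2 CPM in WT sham, 20.9, 11.96 and 13.4 in T497A sham, 1.604, 2.49 and 1.93 in WT TAC and 16.6, 9.48 and 6.67 in T497A TAC. It had the largest fall of the 44 in WT (-3.04 ± 0.35, adjusted p = 5.1e-05), and its T497A TAC libraries ran from T497A sham level to below it (-0.50 ± 0.32, not called). Acot2, the mitochondrial form next to it, stood at 90.4, 83.8 and 94.3 CPM in WT sham, 70.8, 71.9 and 63.5 in T497A sham, 32.99, 20.7 and 33.4 in WT TAC and 82.4, 69.7 and 63.2 in T497A TAC. It fell by less in WT (-1.62 ± 0.17, adjusted p = 1.2e-05) and was not called in T497A (0.06 ± 0.16). Acot1 and Acot2 are near copies, with 13.6% of the 50-base sequences of Acot1 found in Acot2 and 24.5% of those of Acot2 in Acot1, so reads may be split between them. Acot13, a small mitochondrial-associated form, ranged from 179 to 215 CPM in the sham libraries and 118 to 150 CPM in WT TAC (-0.48 ± 0.08, adjusted p = 0.00024), and relative to sarcomere genes it was higher in WT TAC (0.19).

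**Figure D3:**
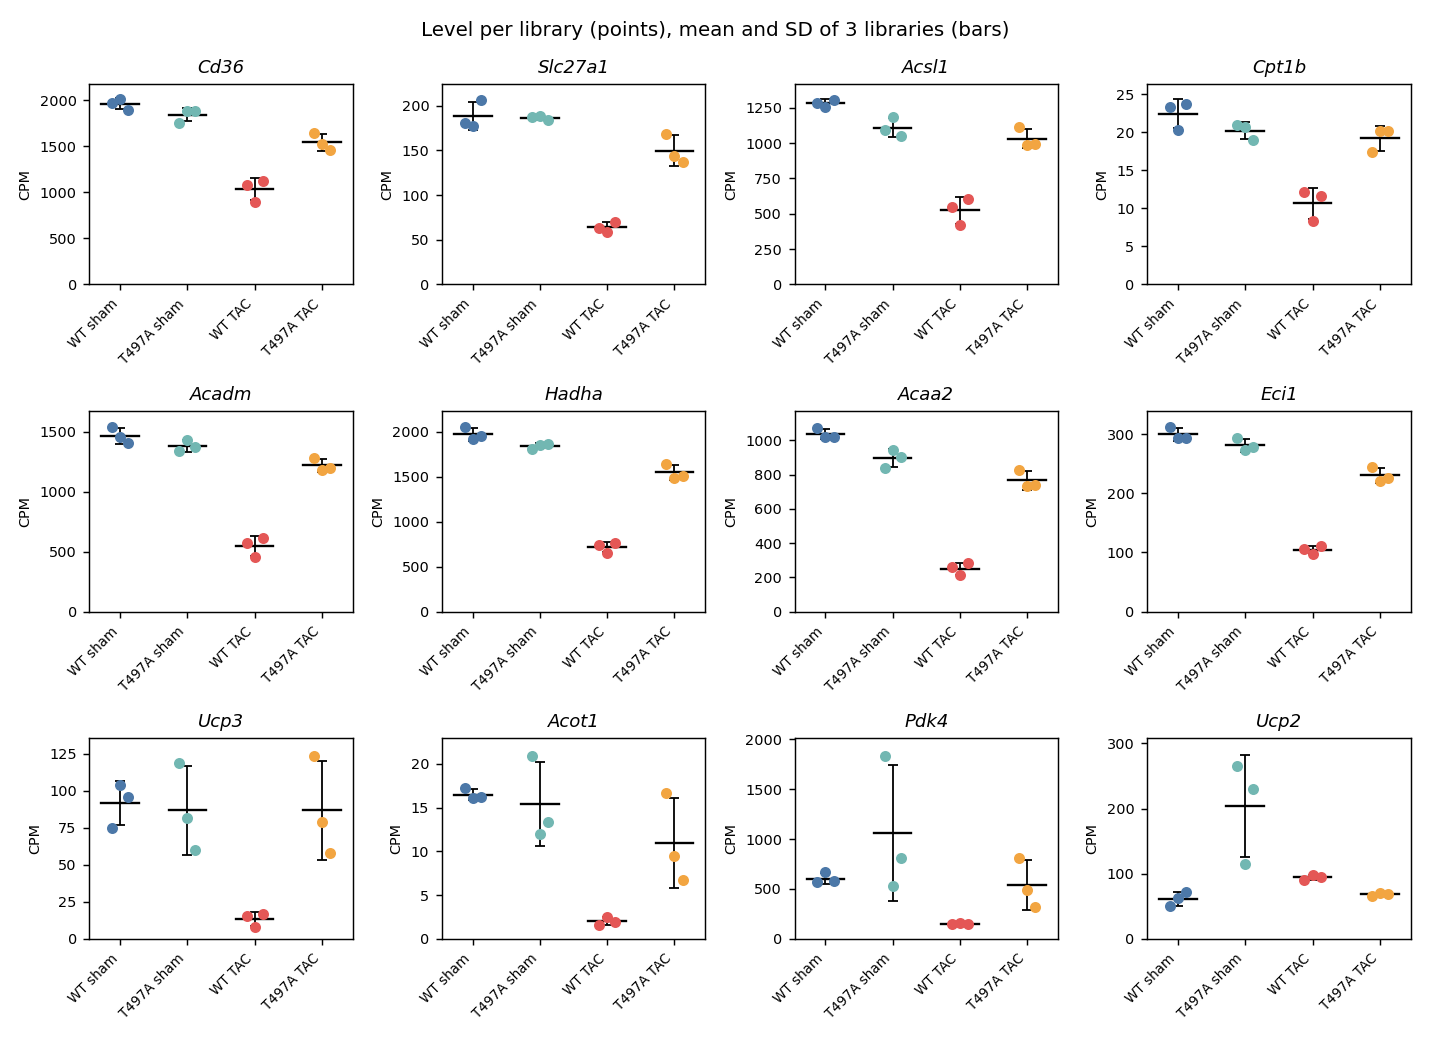
CPM of 12 of the genes in each library (points), with the mean and SD of 3 libraries (bars), by group, each axis starting at 0. WT TAC is the lowest group in every panel but that of Ucp2, where T497A sham is the highest, and T497A TAC libraries are spread from 57.9 to 123 CPM for Ucp3 and from 314 to 807 CPM for Pdk4.

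Libraries of a group were not equally affected. WT TAC 2 was the lowest of its group for 36 of the 44 genes, where it was the lowest for 40.0% of all genes, and WT TAC 3 was the highest for 34 (35.6% of all genes). T497A TAC 1 was the highest of its group for 31 (36.9% of all genes). Ucp3, Pdk4 and Acot1 were each ordered T497A TAC 1 above 2 above 3, and T497A sham 1 was the highest of its group for the same 3 genes. Summed fibroblast markers were also unequal in WT TAC, 8510 to 16730 CPM against 2916 to 4211 CPM elsewhere, and their part in the order of the WT TAC libraries was not tested. Transcripts of the mitochondrial genome made up 13.4%, 9.67% and 14.7% of the counts in WT TAC and at least 16.0% in the 9 other libraries. They were thus lowest in WT TAC, and there in WT TAC 2. With mitochondrial, haemoglobin and rRNA genes removed before scaling 38 of the 44 still fell in WT TAC.

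After TAC in T497A the changes were smaller in most of the genes, a difference tested by the interaction below. T497A sham and T497A TAC also differed in Xist and Ddx3y, so an effect of sex cannot be told apart from these changes. Against T497A sham, 18 of 44 fell and 3 rose (Acsl5, Acad9 and Acaa1a), where 11.4% of all genes fell and 12.9% rose. The median log2 fold change was -0.22 against 0.00 for all genes, called falls other than that of Ucp2 were between -0.19 and -0.57, and relative to sarcomere genes 25 fell and no rise was called. The T497A TAC libraries lay below all T497A sham libraries in 24 genes (19.8% of all genes) and above them in 3 (20.9%). Only 6 of the 21 calls were kept without each library in turn: Ucp2, Etfa, Etfb, Eci1, Acss1 and Acaa1a. Falls numbered 5 without T497A TAC 2, 8 without T497A TAC 3, 10 without T497A sham 2 or 3, and 25 without WT TAC 2, a library outside this comparison. Rises numbered 1 without T497A sham 3 or T497A TAC 2. Uptake had 3 called falls of 6 (Cd36, Lpl, Slc27a1), the later steps 5 of 9 (Hadha, Hadh, Echs1, Eci1, Eci2) and the electron transfer flavoprotein 2 of 3.

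Between the genotype labels after TAC, 37 of 44 genes were higher in T497A and 3 were lower, where 17.8% of all genes were higher and 17.9% lower. The median log2 difference was 0.85 against -0.02 for all genes. Of the 44, 13 were higher by at least 2-fold, a cut at which all genes were not counted. The T497A TAC libraries lay above all WT TAC libraries in 38 genes (24.2% of all genes) and below them in 5 (25.3%), namely Slc27a4, Acsl3, Acsl4, Acsl5 and Ucp2. The 5 largest called differences were 2.68 ± 0.40 (adjusted p = 0.00092) for Ucp3, 2.44 ± 0.35 (adjusted p = 0.00043) for Acot1, 1.84 ± 0.47 (adjusted p = 0.016) for Pdk4, 1.61 ± 0.09 (adjusted p = 1.2e-07) for Acaa2 and 1.51 ± 0.13 (adjusted p = 1.6e-06) for Acsl6. Slc27a1 differed by 1.23 ± 0.09 (adjusted p = 4.3e-07), Hadha by 1.10 ± 0.07 (adjusted p = 2.4e-07), Acadm by 1.16 ± 0.09 (adjusted p = 1.2e-06) and Acsl1 by 0.98 ± 0.11 (adjusted p = 1.1e-05). Of the other uptake genes, Cd36 differed by 0.58 ± 0.08 (adjusted p = 0.00011) and Lpl by 0.61 ± 0.10 (adjusted p = 0.00029). The 3 that were lower were Acsl5 (-0.51 ± 0.08, adjusted p = 0.00021), Acsl4 (-0.21 ± 0.07, adjusted p = 0.037) and Slc27a4 (-0.20 ± 0.07, adjusted p = 0.048). The call of Slc27a4 was lost without any 1 of 11 libraries (up to adjusted p = 0.22) and that of Acsl4 without any 1 of 7 (up to 0.18). Acot13 lost its call without WT TAC 2, T497A TAC 1 or T497A TAC 3 (up to 0.093), and Pdk4 without T497A TAC 1 or any WT TAC library (up to 0.054).

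All 12 sarcomere genes were also higher in T497A TAC than in WT TAC, and the split depends on the scaling. Relative to those genes, a scaling that moves the median of all genes to -0.70, 21 of the 44 were higher and 11 lower. The later steps kept 6 of 9, electron transfer 3 of 3 and malonyl-CoA control 2 of 2 on that scale, while uptake had 1 higher (Slc27a1) and 3 lower. Summed, the 44 genes made 55.7 ± 2.31 CPM per 100 CPM of sarcomere genes in WT sham, 57.3 ± 0.419 in T497A sham, 43.2 ± 2.23 in WT TAC and 46.9 ± 2.93 in T497A TAC (SD, n = 3), so both TAC groups were below both sham groups and overlapped each other. For the later steps of beta oxidation alone the ratios were 12.3 ± 0.385, 11.8 ± 0.262, 7.29 ± 0.192 and 9.97 ± 0.688, with no overlap between the TAC groups. The exact permutation test of 3 against 3 cannot go below 0.1, so no p is given for these ratios.

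**Figure D4:**
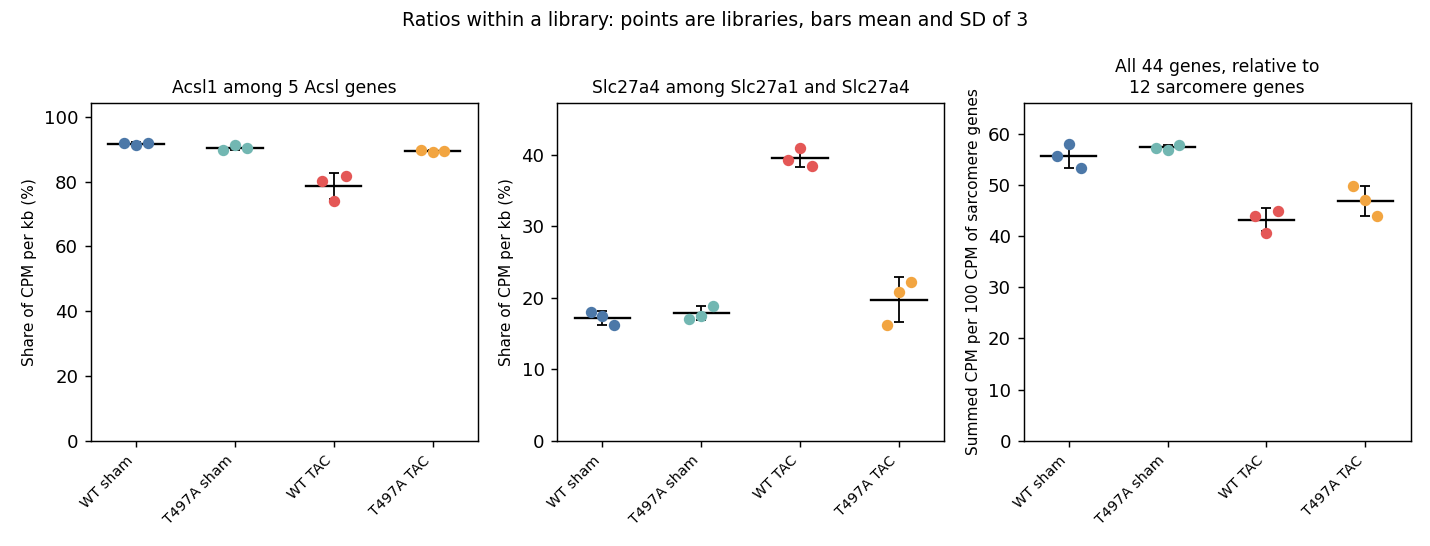
Ratios formed within each library (points), with the mean and SD of 3 libraries (bars), by group: the share of Acsl1 among 5 synthetases and of Slc27a4 among 2 transporters, in percent of CPM per kilobase, and the summed CPM of the 44 genes per 100 CPM of 12 sarcomere genes. WT TAC stands apart from the other groups in the left and middle panels, and overlaps T497A TAC in the right one.

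The interaction of genotype and surgery, the difference between the TAC effects under the 2 genotype labels, was called in 38 of 44 genes. The T497A effect was the higher in 35 (15.3% of all genes) and the lower in 3 (14.2%), Acsl3, Acsl5 and Ucp2. The median was 0.99 against -0.01 for all genes. Relative to sarcomere genes, where the median of all genes moves to -0.75, 20 were higher and 8 lower. The largest were those of Ucp3 (2.76 ± 0.54, adjusted p = 0.0053), Acot1 (2.54 ± 0.47, adjusted p = 0.0028), Acaa2 (1.82 ± 0.13, adjusted p = 7.6e-07) and Acsl6 (1.74 ± 0.18, adjusted p = 1.2e-05), and Ucp2 had the largest in the other direction (-2.19 ± 0.37, adjusted p = 0.0024). Pdk4, with its wide spread, was not called (1.03 ± 0.65, adjusted p = 0.29). The 2 TAC effects have separate controls, but T497A sham differed from the other groups in Xist and Ddx3y, so an effect of sex cannot be told apart from this term. The sign also rests on the genotype labels of the TAC groups. With these exchanged, a contrast added after the label conflict was seen, 34 of the 44 were lower (11.1% of all genes) and 1 higher, Acsl5 (10.4%), with a median of -0.83.

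Between the sham groups few of the genes were called. The T497A sham libraries lay below all WT sham libraries in 15 of the 44 genes (13.5% of all genes) and above them in 4 (12.9%). In T497A sham 1 of 44 was higher and 2 were lower than in WT sham, where 2.99% of all genes were higher and 2.8% lower, and 1 and 1 relative to sarcomere genes. Ucp2 was higher (1.73 ± 0.27, adjusted p = 0.0068), and Acaa1a (-0.45 ± 0.08, adjusted p = 0.0032) and Acad9 (-0.29 ± 0.08, adjusted p = 0.044) were lower, the last a call lost without any 1 of 9 libraries. The number lower ran from 1, without WT sham 1 among others, to 7 without WT TAC 2. At an unadjusted p under 0.05, 2 were higher and 8 lower, a cut at which all genes were not counted. The median was -0.09 against 0.00 for all genes, and the range over the 44 was -0.45 to 1.73.

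Averaged over the genotype labels, 37 of 44 genes fell with TAC (23.6% of all genes) and 1 rose, Acsl5 (24.8%), and relative to sarcomere genes 32 fell and 5 rose. Across the labels, T497A TAC was below WT sham in 16 of 44 (3.9% of all genes) and above it in none (6.12%) by edgeR, with 1 above at an unadjusted p under 0.05, 0 by DESeq2 and 1 by limma-voom. The median was -0.28 against 0.00. Only the falls of Slc25a20, Acad11, Eci1 and Etfb were kept without each library in turn, and 4 falls were left without T497A TAC 2 and 27 made without WT TAC 2. The T497A TAC libraries lay below all WT sham libraries in 33 genes (16.6% of all genes) and above them in 1 (17%). WT TAC was below T497A sham in 38 (24.6% of all genes) and above it in 3 (25.6%), Fabp4, Acsl4 and Acsl5 (Acsl5 alone without WT TAC 1), and relative to sarcomere genes in 31 and 8. The median was -1.14. All of these comparisons share libraries with the ones above, so they are not separate evidence.

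Genes around the pathway were counted from lists by function, to be read against the shares of all genes. Of all genes, 24% fell and 25.9% rose in WT TAC, 11.4% fell and 12.9% rose in T497A TAC, and 17.8% were higher and 17.9% lower in T497A than in WT after TAC. Relative to sarcomere genes, the median of all genes moves to 0.71 in WT TAC and to -0.70 between genotypes after TAC, where 12322 of 17699 genes were lower and 406 higher. Of 15 regulators of the PPAR, ERR and PGC-1 group, 13 fell in WT TAC (median -0.65), 8 fell and 1 rose in T497A TAC, and 11 were higher in T497A than in WT after TAC. Relative to sarcomere genes the WT counts became 5 falls and 4 rises, and 1 was higher and 8 lower between genotypes after TAC. Lpin1, a coactivator and lipid phosphatase, fell by 1.11 on the log2 scale in WT TAC, Klf15, a circadian regulator of muscle metabolism, by 1.26, and Rxrg, a partner receptor of the PPARs, by 1.28. Klf15 also fell by 1.48 in T497A TAC, from 102 to 129 CPM in T497A sham to 39.2 to 43.1 CPM, while its WT sham libraries were at 61.2 to 65.6 CPM. Ppargc1a, which encodes PGC-1 alpha, fell under both labels. It fell by 1.16 in WT TAC, from 136 to 191 CPM to 66.0 to 75.6 CPM, and by 1.17 in T497A TAC, from 184 to 267 CPM to 96.4 to 103 CPM. Its interaction was not called (-0.01 ± 0.20, adjusted p = 0.98). Ppara, which encodes PPAR alpha, fell in WT TAC (-1.10 ± 0.12) and in T497A TAC (-0.71 ± 0.11). Esrra, which encodes ERR alpha, fell in WT TAC (-0.65 ± 0.08) and in T497A TAC (-0.46 ± 0.08). Ppara (0.86 ± 0.12) and Esrra (0.30 ± 0.08) were both higher in T497A than in WT after TAC.

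Peroxisomal oxidation and the carnitine acyltransferases outside mitochondrial import had 13 of 18 genes lower and 1 higher in WT TAC (7 and 7 relative to sarcomere genes). Ech1, a dienoyl-CoA isomerase, fell by 2.19, from 1430 to 1478 CPM in WT sham to 271 to 358 CPM in WT TAC, with 895 to 1045 CPM in T497A TAC. Of 18 genes of triglyceride and lipid droplets, 14 fell and 1 rose in WT TAC (6 and 6 relative to sarcomere genes). Dgat2, which completes triglyceride, fell by 1.66, and Pnpla2, the lipase that opens its breakdown, by 1.05.

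Of 12 genes of synthesis and desaturation, 8 rose and 2 fell in WT TAC (10 rose relative to sarcomere genes), and 5 were lower and 1 higher in T497A than in WT after TAC (12 were lower relative to sarcomere genes). Scd2, a desaturase, rose by 1.23 in WT TAC, from 22.5 to 26.7 CPM in WT sham to 55.0 to 57.9 CPM, and stood at 24.5 to 26.1 CPM in T497A TAC. Elovl1, an elongase of very long chains, rose by 0.95, from 14.96 to 15.3 CPM to 27.3 to 32.5 CPM, with 17.7 to 19.1 CPM in T497A TAC. Of 9 tested genes of lipoprotein lipase handling, 3 rose and 2 fell in WT TAC (6 and 1 relative to sarcomere genes), shares near those of all genes, among them Vldlr, a receptor for triglyceride-rich lipoproteins, which fell by 0.95. All 3 tested genes of carnitine supply fell in WT TAC (1 relative to sarcomere genes) and in T497A TAC, with Slc22a5, the carnitine importer, at 26.2 to 29.8 CPM in WT sham and 12.5 to 15.4 CPM in WT TAC. Of 7 other thioesterases tested, 6 fell and 1 rose in WT TAC (1 and 1 relative to sarcomere genes).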

How the data were processed

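The KAPA mRNA HyperPrep kit was used to make libraries from total RNA of left ventricle, which were read for 50 cycles from 1 end, per the labels' protocols, and all carry 1 batch label. The authors deposited raw read counts per gene, whole numbers in 12 columns, all used here. Per the submitters' processing notes, the tools were Trim Galore 0.6.4, STAR 2.7.3a, featureCounts (Subread 1.6.3) and limma 3.50.3, and the builds named are mm10 and GRCh38, with no role given. How strand and multi-mapping reads were handled is not given in the sources used here, which leaves near copies and overlapping genes uncertain. Of 55401 gene IDs, 54349 matched GENCODE M21 (GRCm38) with their version, 55141 in all and 260 not at all.

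Genes were filtered with filterByExpr, libraries were scaled with TMM factors, and 8 contrasts of the 4 group means were tested with the robust quasi-likelihood F test of edgeR 4.0.16 (R 4.3.3) over all 12 libraries, with Benjamini-Hochberg adjustment over 17699 genes and a threshold of 0.05. Levels are CPM with TMM factors, and errors of log2 fold changes are standard errors. TMM factors were 1.13 to 1.21 in WT TAC and 0.911 to 0.988 elsewhere. Counts of 58932759 to 72594085 per library leave counting error small beside the spread between libraries, whose chi-square per degree of freedom was 10.6 or more within groups. Alternatives were DESeq2 1.42.0 (size factors, test), library totals, scaling to 12 sarcomere genes, limma-voom (limma 3.58.1), other filters, a replicate block, only the groups compared, and leaving out each library. The fit was also run on simulated data in which few genes were changed, with random signs and in WT TAC alone. Those data lack the wide shifts between groups seen here, so they do not test the scaling.

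Values in every library are given for the 2 genes of each step with the smallest p in WT TAC, those called at 1.5-fold or more between genotypes after TAC, those called against most of their step, and 12 set genes, which gave 40 of 44; Acsl3 and Acad11, outside this rule, were added after their values were seen. Of each surrounding list up to 4 called genes with the smallest p could be named. Ppara and Esrra, outside this rule, were added later because the background names their products. The member genes and lists were chosen with earlier results of these data known. Promoters are from RefSeq. Protein sequences were not used here. Some genes that the naming rule covers are not reported here.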

Additional observations from a re-analysis of the deposited data

Results flagged for a closer look

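The change after TAC differed between the genotype labels in 38 of the 44 genes, by the interaction term of edgeR's quasi-likelihood test at an adjusted p under 0.05, and each is given here as the log2 fold change of TAC against sham in T497A less that in WT. A positive value means that T497A TAC stood higher against its own sham group than WT TAC did. Among the uptake genes, the difference of TAC effects was 0.67 for Cd36, 0.48 for Lpl, 0.59 for Fabp3 and 1.24 for Slc27a1. In the activation step, it was 1.19 for Acsl1, -0.75 for Acsl3, -0.47 for Acsl5, 1.74 for Acsl6 and 0.56 for Acss1. In the carnitine shuttle, the values were 0.49 for Cpt1a, 1.00 for Cpt1b, 1.01 for Cpt2 and 1.14 for Slc25a20. In malonyl-CoA control, it came to 1.27 for Mlycd and 1.01 for Acacb. Among the acyl-CoA dehydrogenases, it was 1.01 for Acadvl, 0.60 for Acadl, 1.25 for Acadm, 0.75 for Acads, 0.89 for Acad9, 0.62 for Acad11 and 1.07 for Acad12. In the later steps of beta oxidation, the values were 1.20 for Hadha, 1.09 for Hadhb, 1.06 for Hadh, 0.58 for Echs1, 1.24 for Eci1, 0.79 for Eci2, 1.39 for Decr1, 1.82 for Acaa2 and 0.99 for Acaa1a. In electron transfer, it came to 0.87 for Etfa, 0.80 for Etfb and 1.09 for Etfdh. Of the uncoupling proteins and Pdk4, it was -2.19 for Ucp2 and 2.76 for Ucp3. Among the thioesterases, the values were 2.54 for Acot1 and 1.69 for Acot2. Of the 38, 35 were positive and 3 negative, and relative to sarcomere genes 20 of the 44 were called positive and 8 negative. The call of Acss1 was lost without T497A sham 3 or T497A TAC 1 (adjusted p up to 0.054), and the other 37 were kept without each library in turn. T497A sham, 1 of the 4 groups in the term, differed from the others in Xist and Ddx3y, which touches all of these values. An effect of sex thus cannot be told apart from the term, and its part was not tested. The genotype labels of the TAC groups also set the sign of each value: with these exchanged, 34 of the 44 were called negative and 1 positive, with a median of -0.83 in place of 0.99. Groups of 3 libraries are too small to test for a single library that stands apart.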

How the results depend on the processing

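Numbers of genes below are counts of called members, higher or lower. There were 22 alternatives set out with the design and 1 added after the data were seen (T497A sham left out of the fit). Over them, 7365 of the values of single genes kept their side of the threshold without a called turn of sign. Another 229 lost a call, 154 gained one, and 40 turned sign while called before or after the change. A turn of sign in a value called neither before nor after was not counted, so the 7365 may include such turns. In each case the cause was not tested. Leaving out 1 library at a time gave, for TAC in WT, 36 to 38 lower and 1 to 2 higher. For TAC in T497A, 5 (without T497A TAC 2) to 25 (without WT TAC 2) were lower and 1 to 3 higher. For T497A against WT after sham, 1 to 7 (without WT TAC 2) were lower and 1 to 2 higher. After TAC, 1 to 3 were lower and 35 to 37 higher. For the interaction, 3 were lower and 34 to 36 higher. Averaged over genotypes, 37 to 38 were lower and 1 higher. For T497A TAC against WT sham, 4 (without T497A TAC 2) to 27 (without WT TAC 2) were lower and 0 to 1 higher. For WT TAC against T497A sham, 36 to 38 were lower and 1 to 3 higher.

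Counts that moved by over 1.5 times were these. For TAC in WT, genes higher numbered 6 with library totals, 8 with sarcomere scaling, 2 with DESeq2's test, 3 with limma-voom, and 2 with the 1 CPM filter, without mitochondrial, haemoglobin and rRNA genes, with only the groups compared, and without T497A sham. For TAC in T497A, 0 were higher with sarcomere scaling. Between the sham groups, 1 was lower with library totals and with sarcomere scaling, 4 with limma-voom and 5 with only the groups compared, and 2 were higher with DESeq2's test. After TAC, 5 were lower with library totals, 11 with sarcomere scaling and 1 with no filter, and 21 were higher with sarcomere scaling. For the interaction, 5 were lower with library totals and 8 with sarcomere scaling, and 20 were higher with the latter. With the genotype labels of the TAC groups exchanged, the other alternative added later and made for this term alone, 1 was higher and 34 lower. Averaged over genotypes, 4 were higher with library totals and 5 with sarcomere scaling. For T497A TAC against WT sham, 30 were lower and 1 higher with limma-voom, and 27 lower with only the groups compared. For WT TAC against T497A sham, 8 were higher with sarcomere scaling and 1 with only the groups compared.

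The numbers in the labels did not pair the libraries, as deviations of same-numbered libraries correlated at -0.113 to 0.0743 over 18 pairs and 3 of 12 libraries correlated best with their own number. With a replicate block, T497A against WT after sham had 1 lower in place of 2, and the other counts stayed within 1.5 times.

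The 40 turned signs, each called before or after the change, were these. Sarcomere scaling gave log2 values of 0.67 for Fabp4, 0.35 for Cpt1a, 0.038 for Acad9, 0.069 for Acad10 and 0.19 for Acot13 for TAC against sham in WT. It gave -0.088 for Cd36, -0.053 for Lpl, -0.21 for Fabp3, -0.27 for Cpt1a, -0.067 for Acadl, -0.064 for Acad9, -0.51 for Acad10, -0.16 for Acad11, -0.002 for Echs1, -0.14 for Acaa1a and -0.42 for Acot13 for T497A against WT after TAC. It gave -0.057 for Cd36, -0.24 for Lpl, -0.14 for Fabp3, -0.62 for Fabp4, -0.16 for Acss1, -0.24 for Cpt1a, -0.13 for Acadl, -0.10 for Acad11, -0.15 for Echs1 and -0.52 for Acot13 for the interaction. It gave 0.28 for Slc27a4, 0.22 for Cpt1a, 0.12 for Acad9 and 0.12 for Acaa1a for TAC averaged over genotypes. It gave 0.019 for Fabp3, 0.46 for Acsl3, 0.37 for Cpt1a, 0.27 for Acad9, 0.38 for Acaa1a and 0.085 for Acot13 for WT TAC against T497A sham. Library totals alone gave 0.32 for Fabp4 for TAC against sham in WT. They gave 0.16 for Slc27a4 for TAC averaged over genotypes. They gave 0.039 for Cpt1a and 0.045 for Acaa1a for WT TAC against T497A sham. Depth limits Acad10 and Acsl3 most, whose highest group means were 4.26 and 9.55 CPM.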
